A study of Mus musculus with 2 samples.

Results

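Glycolysis splits glucose into pyruvate, and several of its reactions are carried out by isoenzymes, proteins from separate genes that do the same reaction. The 10 genes described here are the isoenzyme genes of 5 steps: *Pfkm*, *Pfkl* and *Pfkp* encode phosphofructokinase (PFK), which commits glucose to the pathway, *Aldoa* and *Aldoc* encode aldolase, which splits the sugar, *Eno1* and *Eno2* encode enolase, *Pkm* encodes pyruvate kinase, and *Ldha* and *Ldhb* encode the subunits of lactate dehydrogenase (LDH), which interconverts pyruvate and lactate. In brain, the aldolase of *Aldoc* has long been used as a marker of astrocytes and the enolase of *Eno2* as a marker of neurons, and LDH rich in the *Ldha* subunit is classically linked to lactate production, LDH rich in the *Ldhb* subunit to lactate use. The genes were taken by their symbols. They are 10 of the symbols on the 32285 rows of the gene table, and they stand on 11 rows because *Aldoa* is listed under 2 identifiers. The second *Aldoa* row held 4 UMIs in library 1 and 7 in library 2, against 19849 and 16306 for the main row, and was not used further. All 10 genes passed the filter on low counts in the comparison of cell classes.

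The data are 2 10x Genomics single-cell libraries, replicates 1 and 2 of a single condition, made from the dissociated striatum of untreated adult mice aged 8 to 10 weeks per the labels. The strain is C57/Bl6J in one label field and C57BL/6NTac in the protocol, and the labels do not say how many animals each library pools. The paper describes male mice of a somewhat younger age for its single-cell work, dissociated with actinomycin D in the solutions. Cells were enriched for glia by enzymatic digestion, passage through a fine filter and debris removal, so neurons were few. Library 1 held 6978 barcodes with 44597660 UMIs and library 2 held 5437 barcodes with 37982720 UMIs, of which 12007 cells were analysed. The libraries shared 9 barcode sequences.

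Cells were grouped without the 10 genes and without the other genes of glucose use named further on, and clusters were named from marker lists. The astrocyte-like class held 2592 cells and all 8 of its markers were raised, and the neuron-like class held 364 cells with all 12 of its markers raised. The other classes were oligodendrocyte-like (2399 cells), microglia-like (2141), endothelial-like (1401), OPC-like (643, oligodendrocyte precursors), mural-like (555, of vessel walls) and macrophage-like (170). A cluster of 1645 cells had more markers of cycling cells than of neuroblasts among its 10 leading genes, and is called cluster 3. A further 97 erythroid-like cells, 11 of them in library 2, were not compared. In a finer clustering, 277 of the 2592 astrocyte-like cells fell into a neuron-like cluster, which then held 643 cells, so results that turn on these classes are also given there. Of the 2399 oligodendrocyte-like cells, 273 fell into an unnamed cluster there, and cluster 3 parted into 1067 neuroblast-like, 450 cycling progenitor-like and 126 ependymal-like cells, with 2 cells in the neuron-like cluster.

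Genome positions are those of build GRCm38, from the GENCODE annotation. *Eno2* (ENSMUSG00000004267, chr6:124760053-124769673) and *Ldhb* (ENSMUSG00000030246, chr6:142490249-142507957) lie on the minus strand of chromosome 6. *Ldha* (ENSMUSG00000063229, chr7:46841475-46855627, plus strand) and *Aldoa* (ENSMUSG00000030695, chr7:126795234-126800751, minus strand) lie on chromosome 7. *Aldoc* (ENSMUSG00000017390, chr11:78322968-78327781), *Eno1* (ENSMUSG00000063524, chr4:150236721-150248879), *Pkm* (ENSMUSG00000032294, chr9:59656368-59679375) and *Pfkm* (ENSMUSG00000033065, chr15:98092589-98132451) are on plus strands. *Pfkl* (ENSMUSG00000020277, chr10:77986947-78010083) and *Pfkp* (ENSMUSG00000021196, chr13:6579768-6648777) are on minus strands. All are annotated as protein coding, and the isoenzyme genes of a step lie on different chromosomes.

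The promoter windows of the genes whose levels set the classes furthest apart, *Aldoc* and *Eno2*, and of the LDH pair are printed here because the members of each pair went separate ways between classes. Each runs from 250 bases before to 50 bases after a transcript start, 5′ to 3′ on the gene's strand, from RefSeq on GRCm38.p6, and is the most upstream window listed for the gene. Capitals mark ACGTG on either strand, the core that hypoxia-inducible factor is known to bind. Windows were found for all 10 genes.
*Aldoc*, chr11:78322823-78323122, plus strand: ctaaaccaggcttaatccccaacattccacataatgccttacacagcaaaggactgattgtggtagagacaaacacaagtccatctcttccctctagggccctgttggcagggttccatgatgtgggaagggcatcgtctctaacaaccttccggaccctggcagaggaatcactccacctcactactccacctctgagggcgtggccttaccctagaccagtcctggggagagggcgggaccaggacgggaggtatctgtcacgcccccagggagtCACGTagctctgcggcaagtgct
*Eno2*, chr6:124769624-124769923, minus strand: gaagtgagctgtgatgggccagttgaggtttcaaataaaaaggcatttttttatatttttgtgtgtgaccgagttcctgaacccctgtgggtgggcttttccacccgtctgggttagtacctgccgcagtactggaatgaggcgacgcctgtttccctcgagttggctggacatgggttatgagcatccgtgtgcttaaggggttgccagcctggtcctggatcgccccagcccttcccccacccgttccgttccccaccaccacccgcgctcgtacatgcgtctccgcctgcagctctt
*Ldha*, chr7:46845554-46845853, plus strand: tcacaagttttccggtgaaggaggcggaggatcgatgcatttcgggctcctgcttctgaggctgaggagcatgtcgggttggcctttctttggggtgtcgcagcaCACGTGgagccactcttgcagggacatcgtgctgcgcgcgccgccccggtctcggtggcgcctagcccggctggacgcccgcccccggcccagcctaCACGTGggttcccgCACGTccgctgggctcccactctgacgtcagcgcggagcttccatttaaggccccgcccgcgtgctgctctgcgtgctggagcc
*Ldhb*, chr6:142507908-142508207, minus strand: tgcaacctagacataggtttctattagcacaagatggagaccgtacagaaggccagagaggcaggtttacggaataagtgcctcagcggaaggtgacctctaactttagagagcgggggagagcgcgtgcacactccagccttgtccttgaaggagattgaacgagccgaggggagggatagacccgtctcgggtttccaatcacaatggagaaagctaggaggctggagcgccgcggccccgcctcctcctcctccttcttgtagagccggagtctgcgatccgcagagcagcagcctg
The *Ldha* window held the core 2 times forwards and 3 times in reverse, with overlaps where CACGTG reads the same on both strands, and the *Aldoc* window held it once in reverse. It was not among the letters of the *Eno2* and *Ldhb* windows. Of the 10 most upstream windows, 3 held it (*Pfkm*, *Aldoc* and *Ldha*), against 19.6% of the most upstream windows of 27025 genes. *Aldoa* and *Pkm* lacked it there but held it in further windows, in 2 of the 3 listed for *Aldoa* and 1 of the 2 listed for *Pkm*. The match is a description of letters and was not set against the levels.

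Levels are given in CPM, the UMIs of a gene scaled to the same total of UMIs in each class and library. Each UMI is counted from the 3′ end of an mRNA, so CPM was not divided by gene length, and genes of one reaction were set side by side as shares of their summed UMIs. The tests compare sums per library and class, with the p-value adjusted over the 15250 genes tested by edgeR's quasi-likelihood test and a threshold of 0.05. They take the classes as given, although the classes were made from the same cells. They also scale each sum by a TMM factor, which the CPM do not carry. The factors ran from 0.75 (oligodendrocyte-like, library 2) to 1.32 (OPC-like, library 2). A gap in CPM can therefore differ from the tested fold change. Classes differ in so many genes that a high share passes in any comparison: 49.4% of all genes tested differed between neuron-like and astrocyte-like cells, 23.4% higher and 25.9% lower in neuron-like cells. Among the 10 genes 6 differed, 1 higher (*Eno2*) and 5 lower (*Aldoc*, *Eno1*, *Pfkm*, *Ldhb* and *Aldoa*). The median log2 fold change was -0.42 over the 10 genes and -0.04 over all genes tested.

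**Figure D1:**
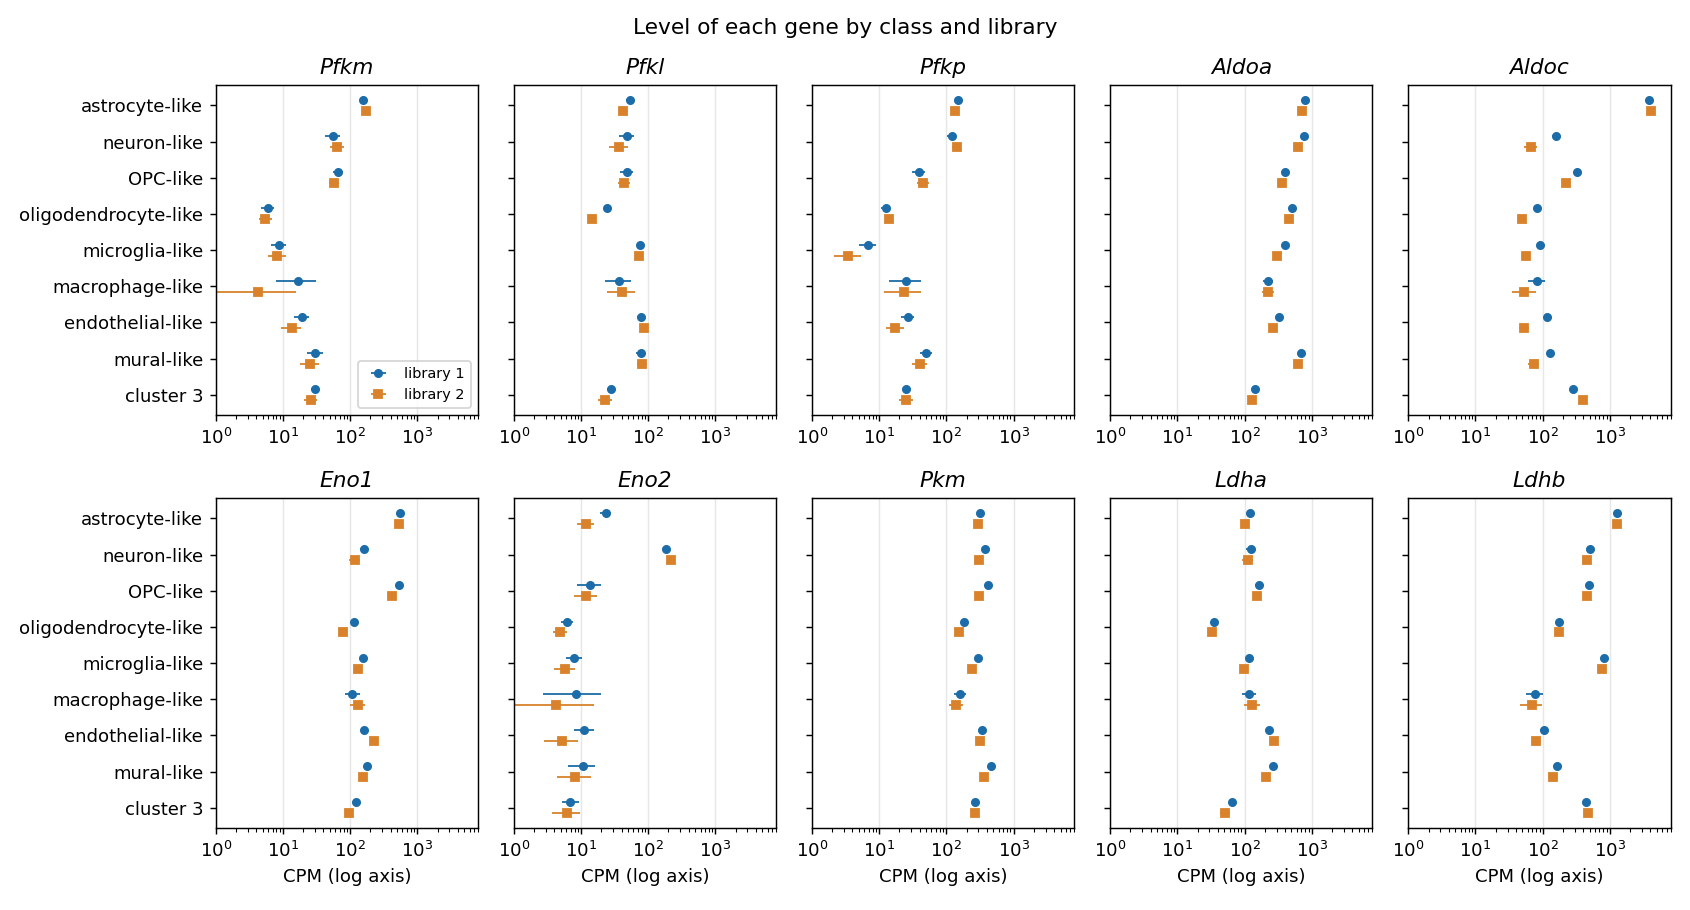
Level of each of the 10 genes in CPM (log axis) in 8 named classes and cluster 3. Circles are library 1 and squares library 2, with exact 95% Poisson intervals for counting error. *Aldoc* stood at 3883 and 4150 CPM in astrocyte-like cells and *Eno2* at 186 and 217 CPM in neuron-like cells, apart from every other class, while *Pkm* stayed within a narrow band.

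Of the PFK genes, *Pfkm*, the muscle-type subunit, was highest in astrocyte-like cells at 158 CPM in library 1 and 175 CPM in library 2. Neuron-like cells had 55.2 and 64.3 CPM of it. The libraries of the 2 classes did not overlap. The log2 fold change of neuron-like over astrocyte-like cells was -1.75 ± 0.20 (SE derived from the fit of all classes, 2 libraries, adjusted p = 1.69e-06). Each SE of a log2 fold change given here is its size divided by the square root of the F statistic of its test. OPC-like cells, at 66.9 and 58.5 CPM, overlapped with neuron-like cells. Oligodendrocyte-like cells, at 5.91 and 5.47 CPM, were the lowest class of those compared. Their cluster of high mitochondrial share (a median of 22.3% of UMIs) had 9.65 and 11.6 CPM of *Pfkm* as the lower and the higher library of the finer clustering, above the 4.43 and 4.76 CPM of the main oligodendrocyte-like cluster. The log2 fold change of astrocyte-like over oligodendrocyte-like cells was 4.32, and 4.53 with only cells under 20% mitochondrial UMIs.

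*Pfkp*, the platelet-type subunit, had the same leading classes but did not part them. It was 150 and 132 CPM in astrocyte-like cells and in neuron-like cells it reached 120 and 142 CPM. These ranges overlapped, and the log2 fold change of -0.37 ± 0.20 had an adjusted p of 0.129. The next class was mural-like at 49.8 and 40.02 CPM, and microglia-like cells were lowest at 6.76 and 3.47 CPM. This order was that of whole classes. In the finer clustering the shallower neuroblast-like cluster ranged from 84.1 to 130 CPM, overlapping with the neuron-like cluster (115 to 134 CPM). The mural-like cluster led by *Acta2* ranged from 64.8 to 96.0 CPM. The main oligodendrocyte-like cluster (5.50 to 5.86 CPM) overlapped with the main microglia-like one (3.09 to 5.98 CPM).

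*Pfkl*, the liver-type subunit, had other leading classes. Endothelial-like cells held 77.8 and 85.4 CPM, mural-like cells 76.8 and 81.3 CPM, and microglia-like cells 75.9 and 72.6 CPM. Astrocyte-like (53.8 and 42.8 CPM), OPC-like and neuron-like cells (47.9 and 36.6 CPM) lay lower and overlapped with one another. The log2 fold change of neuron-like over astrocyte-like cells was -0.46 ± 0.20, with an adjusted p of 0.0686.

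As shares of PFK UMIs, *Pfkm* made up 46.8% ± 4.45 (SD, n = 2 libraries) in astrocyte-like cells, *Pfkp* 56.1% ± 3.28 in neuron-like cells and *Pfkl* 84.6% ± 2.08 in microglia-like cells. In astrocyte-like cells *Pfkp* followed at 39.6% ± 2.55. In library 1 of these cells the intervals of *Pfkm* (41.3 to 46.1%) and *Pfkp* (39.1 to 43.8%) overlapped, and in library 2 (47.4 to 52.5% and 35.4 to 40.3%) they did not. In microglia-like cells *Pfkp* was 5.76% ± 2.32 and *Pfkm* 9.59% ± 0.25 of PFK UMIs. A leading share of *Pfkp* was not particular to neuron-like cells in the finer clustering. It was 54.6% ± 4.23 in the neuron-like cells there and 58.8% ± 16.3 in the unnamed cluster from the oligodendrocyte-like class. In neuroblast-like cells it was 44.5% ± 7.81, against 29.6% ± 3.27 for *Pfkm* and 25.9% ± 4.54 for *Pfkl*. The summed level of the PFK genes was 356 ± 7.78 CPM in astrocyte-like cells, 233 ± 13.96 in neuron-like cells and 38.3 ± 5.79 in oligodendrocyte-like cells. No test was run on the shares, and an exact 2-sided permutation test of 2 against 2 libraries could not go below p = 0.333.

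**Figure D2:**
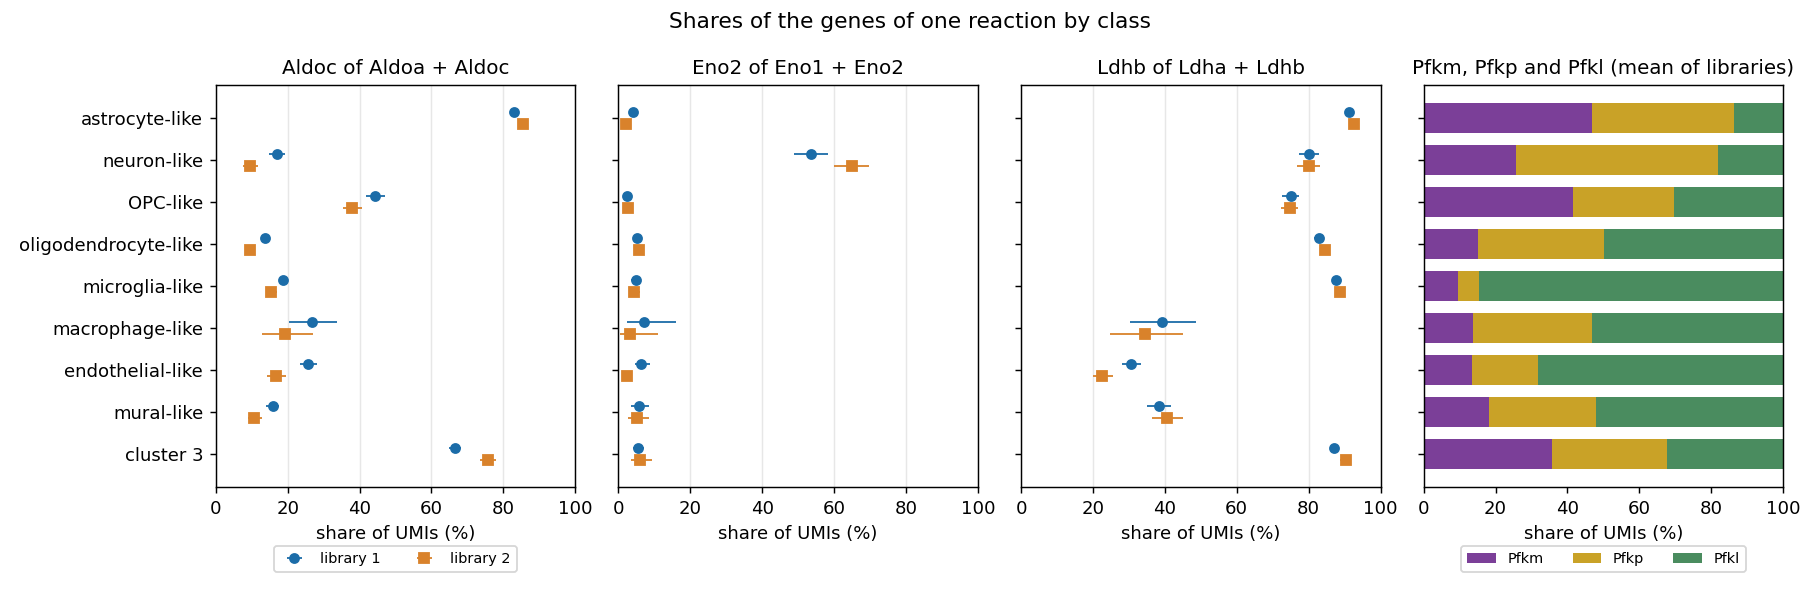
Share of UMIs (%) of *Aldoc* among aldolase, *Eno2* among enolase and *Ldhb* among LDH genes by class, with circles for library 1, squares for library 2 and exact 95% binomial intervals. The bars give the mean shares of the 3 PFK genes over the libraries. *Eno2* reached 53.6% and 65.0% in neuron-like cells and at most 7.14% in any other class drawn. Of the classes drawn, *Ldhb* fell under 50% in endothelial-like, mural-like and macrophage-like cells alone.

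*Aldoc* spanned the widest range of the 10 genes, 61.5-fold between the highest and the lowest class mean. Astrocyte-like cells held 3883 CPM in library 1 and 4150 CPM in library 2. Neuron-like cells held 158 and 66.1 CPM. No class overlapped with the astrocyte-like cells, and the log2 fold change of neuron-like over astrocyte-like cells was -5.53 ± 0.36 (adjusted p = 4.97e-09). Cluster 3 (284 and 401 CPM) and OPC-like cells (319 and 222 CPM) came next and overlapped with each other, and from neuron-like to oligodendrocyte-like cells (81.9 and 48.6 CPM) every class overlapped with its neighbour in the order. Cluster 3 was uneven: in the finer clustering its neuroblast-like cells formed clusters with means of 313 and 98.6 CPM and its cycling progenitor-like cells a cluster with 168 and 27.9 CPM in libraries 1 and 2, while the ependymal-like cluster, 126 of whose 148 cells came from cluster 3, had 1694 CPM.

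The low *Aldoc* levels went with RNA of other astrocyte genes. In astrocyte-like cells there were 0.275 and 0.256 *Aldoc* UMIs for each UMI of the 8 astrocyte markers. In neuron-like cells the same ratio was 0.155 and 0.134, and the 8 markers summed to 1022 and 494 CPM there against 14142 and 16223 CPM in astrocyte-like cells. At the ratio of the astrocyte-like cells, those markers would bring 281 and 126 CPM of *Aldoc*, above the 158 and 66.1 CPM measured. The measured level was also at or below that mark in both libraries of OPC-like, oligodendrocyte-like, microglia-like, macrophage-like, endothelial-like and mural-like cells, and of the 9 classes compared it was above it only in library 2 of cluster 3 (401 against 357 CPM). The mark takes all RNA of the 8 markers outside astrocyte-like cells as astrocyte RNA. Whether the *Aldoc* of these classes was their own or came from astrocytes was not tested. OPCs also express some of the 8 markers, which raises the mark for that class.

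The finer clustering shifted this value. Its neuron-like cluster held 391 and 106 CPM of *Aldoc*, and the log2 fold change became -4.55. Over the 11 alternative settings it lay between -5.51 and -4.40, so none of them reached the -5.53 given above. In the classes as first made it was -6.27 without library 1 and -4.92 without library 2, with no test. The astrocyte-like cells of the finer clustering were of 2 clusters that differed in depth and in leading genes. The shallow one, with a median of 1499 UMIs a cell, was led by *Agt*, *Slc6a11* and *Etnppl*. It held 2764 and 2917 CPM of *Aldoc*. The deep one, with a median of 8258 UMIs, was led by *Crym*, *Fjx1* and *Cldn10*, with *Aldoc* among its 10 leading genes. It held 5288 and 5031 CPM. The ependymal-like cluster was the only other one of the 22 whose mean was above 1000 CPM, at 1694 CPM. The part of depth in this difference was not tested.

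**Figure D3:**
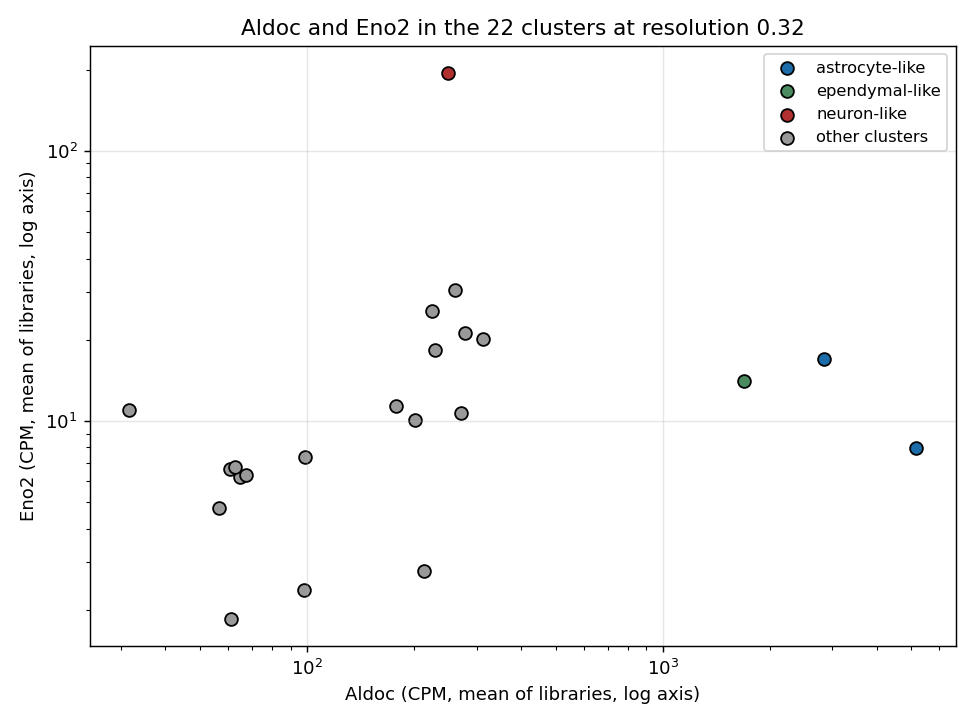
*Aldoc* (x) and *Eno2* (y) in CPM, mean of the libraries, in the 22 clusters of the finer clustering (both axes log). Both astrocyte-like clusters and the ependymal-like cluster sit to the right at 1694 CPM of *Aldoc* or more, and the neuron-like cluster sits alone at the top at 194 CPM of *Eno2*.

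*Aldoa*, the aldolase of most tissues, was more even. It was 799 and 713 CPM in astrocyte-like, 773 and 625 CPM in neuron-like and 693 and 617 CPM in mural-like cells, and these classes overlapped in the order given. The fitted log2 fold change of neuron-like over astrocyte-like cells was -0.39 ± 0.13 (adjusted p = 0.0177), although their CPM ranges overlapped. Without TMM scaling it was -0.12 (adjusted p = 0.483). Cluster 3 was lowest at 143 and 128 CPM. *Aldoc* made up 84.1% ± 1.69 of aldolase UMIs in astrocyte-like cells, 71.2% ± 6.58 in cluster 3, 41.1% ± 4.54 in OPC-like cells and 13.3% ± 5.26 in neuron-like cells. Within cluster 3 the share was not uniform: it was 75.1% and 82.7% in the ependymal-like cluster, 60.9% and 63.8% in the shallower neuroblast-like cluster, 48.1% and 44.6% in the deeper one and 64.4% and 33.8% in the cycling progenitor-like cluster.

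Of the enolases, *Eno2* was 186 CPM (95% interval 163 to 212) in library 1 and 217 CPM (191 to 246) in library 2 of neuron-like cells. In astrocyte-like cells it was 23.3 and 11.7 CPM. Every other class held 13.5 CPM or less in each library, and none overlapped with neuron-like cells. The log2 fold change of neuron-like over astrocyte-like cells was 3.26 ± 0.23 (adjusted p = 1.02e-08), and 3.79 in the finer clustering. Taken from 1 library, with no test, it was 3.84 without library 1 and 2.67 without library 2. Over the other 5 named classes tested and cluster 3 it was between 3.98 and 4.65, and each of these passed the test in all 11 alternatives. Macrophage-like cells were not compared by a test. *Eno2* was the only one of the 10 genes to be higher in neuron-like cells than in every class tested.

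The same ratio was taken for *Eno2* and neuron markers. In neuron-like cells there were 0.0100 and 0.0110 *Eno2* UMIs for each UMI of the 12 neuron markers, and in astrocyte-like cells 0.0346 and 0.0276. The neuron markers of the astrocyte-like cells, 672 and 425 CPM, would bring 6.72 and 4.66 CPM of *Eno2*, below the 23.3 and 11.7 CPM measured. The measured level was also above this mark in both libraries of the other named classes compared, for example in microglia-like cells (7.89 against 1.72 and 5.85 against 1.24 CPM), so an excess was not particular to astrocyte-like cells. In cluster 3 it was below the mark, at 6.95 against 15.7 and 6.15 against 13.96 CPM. The mark takes any neuron RNA in other classes to hold *Eno2* and the 12 markers in the ratio of the neuron-like class. Neurons with another mix of these genes would give another mark. Whether the *Eno2* of these classes was their own or came from neurons was not tested. With the finer clustering, in which 277 of the astrocyte-like cells were neuron-like, astrocyte-like cells held a mean of 11.3 CPM of *Eno2*. *Eno2* was called higher in astrocyte-like than in oligodendrocyte-like, microglia-like, endothelial-like and mural-like cells and cluster 3, but each of these calls was lost in 1 to 7 of the 11 alternatives.

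*Eno1*, the enolase of most tissues, made up most of the enolase UMIs in every class but the neuron-like one. It was 557 and 540 CPM in astrocyte-like cells and 538 and 425 CPM in OPC-like cells, without overlap. Neuron-like cells held 161 and 117 CPM, and the log2 fold change over astrocyte-like cells was -2.26 ± 0.20 (adjusted p = 1.08e-07). From endothelial-like cells (163 and 226.8 CPM) down to oligodendrocyte-like cells (114 and 79.0 CPM), all neighbours in the order overlapped. *Eno2* made up 59.3% ± 8.02 of enolase UMIs in neuron-like cells and 3.07% ± 1.33 in astrocyte-like cells. In library 1 of neuron-like cells its interval, 48.8 to 58.4%, took in an equal share of both enolases. In the neuron-like cells of the finer clustering it was 49.6% in the lower and 63.5% in the higher library. The summed level of the enolases was 340 ± 8.87 CPM in neuron-like and 566 ± 19.7 CPM in astrocyte-like cells. *Eno1b*, a near-copy of *Eno1* whose reads the authors' counting could split, held 72 and 75 UMIs in all.

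*Pkm* varied least, with 2.70-fold between the highest and the lowest class mean. It was 460 and 357 CPM in mural-like, 415 and 309 CPM in OPC-like, 369 and 310 CPM in neuron-like and 318 and 291 CPM in astrocyte-like cells. Mural-like and astrocyte-like cells did not overlap, but neuron-like and astrocyte-like cells did, and the test between them was not passed (log2 fold change -0.12 ± 0.13, adjusted p = 0.481). The lowest were oligodendrocyte-like (183 and 153 CPM) and macrophage-like cells (162 and 141 CPM). The counts are per gene, so the splice forms PKM1 and PKM2, which differ between tissues, cannot be told apart here.

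Of the LDH genes, *Ldhb*, the heart-type subunit, was highest in astrocyte-like cells at 1278 and 1293 CPM. Microglia-like cells followed at 817 and 767 CPM, and neuron-like cells held 503 and 449 CPM. In CPM none of these overlapped, and the log2 fold change of neuron-like over astrocyte-like cells was -1.71 ± 0.14 (adjusted p = 5.34e-08). The test of astrocyte-like over microglia-like cells, which uses TMM scaling, was not passed (log2 fold change 0.25, adjusted p = 0.121). Neuron-like, OPC-like (489 and 460 CPM) and cluster 3 cells (441 and 478 CPM) could not be told apart by their ranges. *Ldhb* was under 200 CPM in oligodendrocyte-like, mural-like, endothelial-like and macrophage-like cells.

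*Ldha*, the muscle-type subunit, was highest in vessel cells. Endothelial-like cells held 233 and 277 CPM and mural-like cells 265 and 208 CPM, and these overlapped. Neuron-like (124 and 112 CPM) and astrocyte-like cells (122 and 102 CPM) also overlapped, with a log2 fold change of -0.20 ± 0.15 (adjusted p = 0.314). Oligodendrocyte-like cells were lowest at 35.6 and 32.2 CPM.

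The share of *Ldhb* among LDH UMIs therefore stood high in both neuron-like and astrocyte-like cells, at 80.2% (exact 95% interval 77.2 to 83.0) and 80.1% (76.8 to 83.1) in the neuron-like and 91.3% (90.6 to 91.9) and 92.7% (92.0 to 93.3) in the astrocyte-like libraries. The intervals, which cover counting error only, did not overlap between the classes. Microglia-like cells were at 88.2% ± 0.80, OPC-like cells at 74.9% ± 0.20, mural-like cells at 39.5% ± 1.65, macrophage-like cells at 36.9% ± 3.47 and endothelial-like cells at 26.7% ± 5.71. *Ldha* was thus the larger part of LDH UMIs over each of the mural-like, macrophage-like and endothelial-like classes, but not in all of their finer clusters. The share of *Ldhb* was 51.8% and 48.9% in the largest mural-like cluster, 52.9% and 70.8% in the fibroblast-like cells held in the mural-like class, and 66.8% and 34.0% in the shallow endothelial-like cluster, against 23.6% and 21.9% in the deeper one. The oligodendrocyte-like class was uneven too. Its unnamed cluster had 45.2% and 52.8% as the lower and the higher library, against 87.5% and 89.1% in the oligodendrocyte-like cells of the finer clustering.

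**Figure D4:**
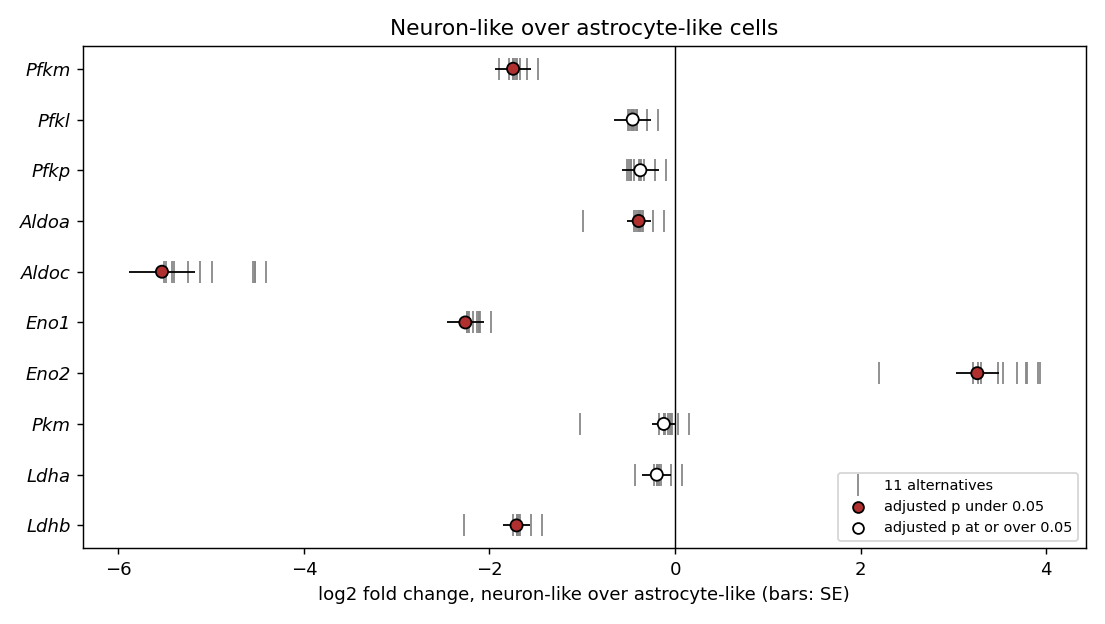
Log2 fold change of neuron-like over astrocyte-like cells for the 10 genes, with SE bars and filled points where the adjusted p was under 0.05. Grey ticks give the 11 alternative settings. *Eno2* stands at 3.26 and *Aldoc* at -5.53, and ticks of *Pkm* and *Ldha* lie on both sides of 0.

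The direction of the smaller differences rests on the scaling. Without TMM factors the median log2 fold change of all genes for neuron-like over astrocyte-like cells moved from -0.04 to 0.18, and the calls from 3571 higher and 3957 lower to 4680 higher and 3040 lower. With DESeq2 they were 4092 higher and 3241 lower. *Eno2*, *Aldoc*, *Eno1*, *Pfkm* and *Ldhb* kept their direction and passed the test in all 11 alternatives, and *Aldoa* passed in 8 of 11. *Pkm* was -0.12 with TMM, 0.16 without and 0.04 with DESeq2, and none of these 3 passed. Thinning each cell to 1000 UMIs left shallower cells out and gave the rest the same weight. It left out 458 and 148 astrocyte-like and 4 and 9 neuron-like cells of libraries 1 and 2. *Pkm* moved to -1.03 (adjusted p = 3.37e-04) and *Aldoa* to -0.99 (adjusted p = 7.76e-05).

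Detection per cell was read together with depth. *Eno2* had a UMI in 48.3% of neuron-like and 5.25% of astrocyte-like cells, where the median cell of libraries 1 and 2 held 4629 and 4106 UMIs if neuron-like, and 1623 and 2374 UMIs if astrocyte-like. With each cell thinned to 1000 UMIs these became 13.1% and 2.27%, after 4 and 9 shallower neuron-like cells and 458 and 148 shallower astrocyte-like cells were left out of libraries 1 and 2. *Aldoc* had a UMI in 79.8% of astrocyte-like cells and 28.5% of neuron-like cells, and 76.4% and 8.66% when thinned. The class with the highest share was the same for both genes with and without thinning.

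Against the other classes, neuron-like cells differed in 5 of 10 genes from oligodendrocyte-like cells (background 61.0%), 5 from OPC-like cells (45.8%), 8 from microglia-like cells (65.3%), 9 from endothelial-like cells (59.8%), 8 from mural-like cells (56.2%) and 6 from cluster 3 (53.4%). These comparisons share the neuron-like sums. Without TMM all 10 differed from oligodendrocyte-like cells, where 9096 of all 15250 genes tested did. After thinning 5 differed from mural-like cells, where 4156 of all 11385 genes tested did. *Pfkp* was higher in neuron-like cells in all 6, by 1.26 to 3.82 on the log2 scale, and *Pfkm* in all but the OPC-like one (log2 fold change -0.02, adjusted p = 0.965). After thinning *Pfkm* did not pass over endothelial-like (0.98, adjusted p = 0.0618), mural-like (0.69, adjusted p = 0.285) or cluster 3 cells (0.34, adjusted p = 0.572). *Pfkl* was lower than in microglia-like (-1.53), endothelial-like (-1.34) and mural-like cells (-1.16), the last not after thinning (-0.79, adjusted p = 0.173). *Ldhb* was lower than in microglia-like cells (-1.46) and higher than in oligodendrocyte-like (0.70), endothelial-like (1.96) and mural-like cells (1.36). After thinning *Ldhb* did not pass over oligodendrocyte-like (0.20, adjusted p = 0.53) or mural-like cells (0.40, adjusted p = 0.248). *Pkm* was called lower than in microglia-like cells at -0.40, but without TMM it was called higher at 0.33, so its direction there depends on the scaling. *Ldha* was -0.58 there and 0.15 without TMM. *Aldoc* was called lower than in cluster 3 at -1.94, but at 0.58 in the finer clustering the direction was the opposite.

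Astrocyte-like cells differed in 9 of 10 genes from oligodendrocyte-like cells (background 61.6%), 6 from OPC-like cells (42.5%), 8 from microglia-like cells (65.2%), 9 from endothelial-like cells (58.4%), 9 from mural-like cells (51.4%) and 9 from cluster 3 (56.7%). These share the astrocyte-like sums. The median log2 fold change of the 10 genes lay between 0.74 and 1.96 in these comparisons, against -0.07 to 0.01 over all genes tested. *Aldoc*, *Pfkm*, *Pfkp* and *Eno1* were higher in astrocyte-like cells in all 6, *Aldoc* by 3.59 to 5.55 on the log2 scale. *Eno1* over OPC-like cells, 0.52 (adjusted p = 0.0312), passed in 8 of 11 alternatives and was 0.20 without TMM (adjusted p = 0.408). *Ldhb* was higher in 5 of 6, and for microglia-like cells it was 0.25 with an adjusted p of 0.121. *Pfkl* and *Ldha* were lower than in endothelial-like cells, at -0.89 and -1.32, and than in mural-like cells, at -0.71 and -1.07. The *Pfkl* difference from mural-like cells did not pass after thinning (-0.37, adjusted p = 0.442).

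Other genes of glucose use were read from a list of 40, of which 32 passed the filter on low counts. Between neuron-like and astrocyte-like cells 24 of the 32 differed (75.0%, against 49.4% of all genes), 5 higher and 19 lower in neuron-like cells, with a median log2 fold change of -0.65 against -0.04 over all genes. Nothing is read from this about the list as a whole.

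Of the glucose transporters, *Slc2a3* (GLUT3, the neuronal transporter) was higher in neuron-like cells, at 80.4 and 115 CPM against 7.32 and 6.31 CPM, a log2 fold change of 3.47 ± 0.33 (adjusted p = 2.17e-07). *Slc2a1* (GLUT1, of vessels and astrocytes) was lower at 99.9 and 31.3 against 177 and 133 CPM (-1.64 ± 0.32, adjusted p = 4.34e-04). In endothelial-like cells it was 4994 CPM in one library and 2159 CPM in the other. None of the 3 hexokinase genes tested passed.

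Of the 5 steps with 1 main gene, 4 were lower in neuron-like cells: *Gapdh* (-1.37 ± 0.12), *Pgk1* (-0.86 ± 0.14), *Tpi1* (-0.55 ± 0.14) and *Gpi1* (-0.46 ± 0.14), with adjusted p of 1.39e-07, 9.49e-05, 0.00377 and 0.0137. *Gpi1* passed in 8 of 11 alternatives, and its CPM ranges overlapped, at 283 and 233 in neuron-like and 310 and 275 in astrocyte-like cells. *Pgam1* was -0.25 ± 0.13 (adjusted p = 0.115). *Gapdh* stood apart between the libraries, at 1712 and 686 CPM in astrocyte-like and 851 and 300.2 CPM in neuron-like cells, and it has many near-copies in the genome that can share its reads. *Pgam2*, a muscle form, was higher in neuron-like cells, but at 11.4 and 4.47 CPM.

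Monocarboxylate carriers move lactate and pyruvate across membranes, and of the 3 carrier genes tested 2 were higher and 1 lower in neuron-like cells. *Slc16a7* (MCT2, the neuronal carrier) was 23.5 and 33.1 CPM against 3.01 and 0.45 CPM (log2 fold change 3.39 ± 0.45, adjusted p = 9.78e-06). *Slc16a3* (MCT4) was 1.77 ± 0.58 (adjusted p = 0.0173) on 4 and 5 UMIs against 3 and 2. *Slc16a1* (MCT1) was lower at -1.73 ± 0.25 (adjusted p = 1.88e-05), as was *Bsg*, the partner protein of carriers, at -0.46 ± 0.18 (adjusted p = 0.0413).

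Genes of glycogen use and of pyruvate entry into mitochondria differed as well. All 5 glycogen genes were lower in neuron-like cells, led by *Ppp1r3c*, a subunit that brings a phosphatase to glycogen (4.06 and 1.79 against 69.5 and 77.5 CPM, -4.64 ± 0.40, adjusted p = 8.43e-08), and *Pygm*, a glycogen phosphorylase (-3.90 ± 0.38, adjusted p = 3.48e-07). Of 8 genes of pyruvate entry, 5 were lower and 1 higher. *Pdk4*, a kinase that shuts pyruvate dehydrogenase down, had no UMI in neuron-like cells, while astrocyte-like cells held 23.3 and 31.8 CPM, so it was at least 21.5-fold lower against a floor of 3 UMIs over both libraries. *Pdk2* was -2.82 ± 0.32 (adjusted p = 1.50e-06). *Pfkfb4* and *Pfkfb3*, which make an activator of PFK, were lower by the test at -2.20 ± 0.27 (adjusted p = 4.55e-06) and -0.80 ± 0.25 (adjusted p = 0.0151). *Pfkfb3* passed in 8 of 11 alternatives, and its ranges overlapped, at 14.6 and 22.3 CPM in neuron-like and 19.2 and 35.6 CPM in astrocyte-like cells.

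**Figure D5:**
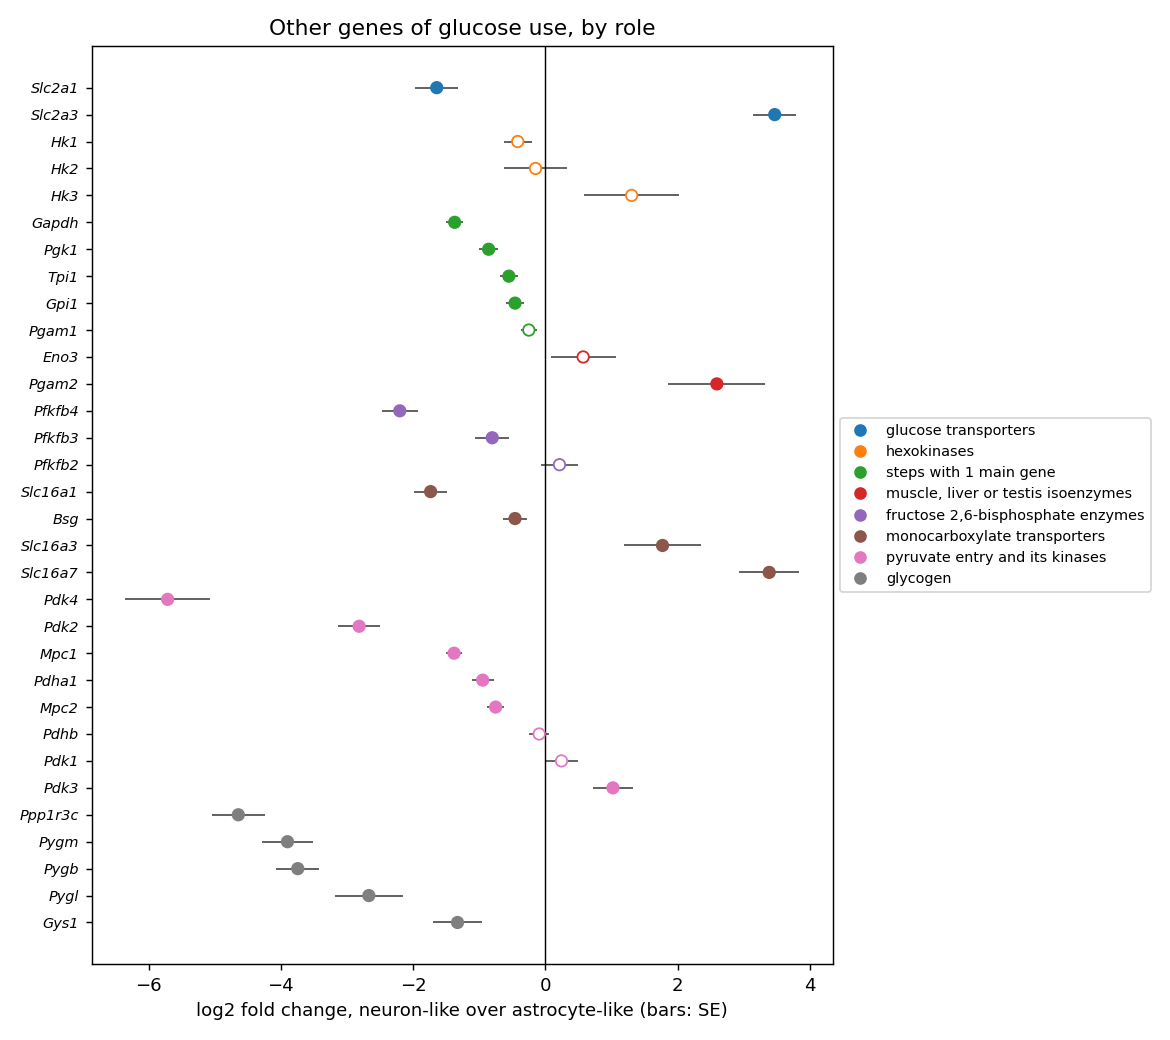
Log2 fold change of neuron-like over astrocyte-like cells for the 32 other genes of glucose use that were tested, coloured by role, with SE bars and filled points where the adjusted p was under 0.05. All 5 glycogen genes lie left of 0, and *Slc2a3* at 3.47 and *Slc16a7* at 3.39 lie furthest right.

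Across 18 sums of library and class and 8086 genes, some genes followed a member closely on the scale of log2(CPM + 10). This is a description: the sums of a class share cells, and those of a library share depth. The closest to *Aldoc* were *Slc1a2* (Pearson r = 0.992), *Ntsr2* (0.990) and *Rorb* (0.986), and the closest to *Eno2* were *Rasd2* (0.994), *Rasgef1a* (0.992) and *Grin2a* (0.990). *Slc1a2* is one of the astrocyte markers that named the class. *Pfkm* was nearest to *Kcnk1* (0.958), *Slc1a4* (0.953) and *Trpm3* (0.946). *Pfkl* (*Extl3* at 0.922) and *Ldha* (*Mfhas1* at 0.920) had *Mfhas1* among their 3 nearest genes in common, and their own correlation with each other was 0.867. *Pfkm* and *Pfkp* correlated at 0.878, *Aldoa* and *Aldoc* at 0.253, *Eno1* and *Eno2* at 0.039, and *Ldha* and *Ldhb* at -0.238. For *Pkm* and *Ldhb* no gene exceeded 0.850.

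The study split striatal astrocytes by *Crym*, the gene of μ-crystallin, and the same cut was applied here. The paper's groups were of nearly equal size, while here *Crym*- cells were the larger group in each library. The cut gave the same groups here as at least 1 UMI of *Crym*, so *Crym*- cells are those in which no UMI of it was caught. Library 1 gave 546 *Crym*+ and 972 *Crym*- cells of the astrocyte-like class, and library 2 gave 446 and 628. The groups differed in depth, with medians of 2400 against 1356 UMIs in library 1 and 4980 against 1808 in library 2. Of 5958 genes tested, 7.96% differed, and of the 10 genes 9 were detected in enough cells to be tested (not *Eno2*) and 2 were higher in *Crym*+ cells. *Aldoc* was 4424 and 4664 CPM in *Crym*+ and 3341 and 3546 CPM in *Crym*- cells, without overlap (log2 fold change 0.36 ± 0.08, adjusted p = 0.00613). *Ldhb* was 1500 and 1421 against 1056 and 1142 CPM (0.37 ± 0.09, adjusted p = 0.00636). With each cell thinned to 1000 UMIs the groups were cut anew on the thinned counts, so they are not the same groups. Library 1 then gave 323 *Crym*+ and 737 *Crym*- cells, and library 2 gave 320 and 606. Both genes passed there, at 0.43 and 0.44. Neither passed with DESeq2 (adjusted p = 0.0783 and 0.172), nor when astrocyte-like cells were taken from the finer clustering, an alternative chosen after the data were seen (0.0607 and 0.0667). Without the library block neither passed (0.798 and 0.877), and the calls over all genes went from 474 to 4. Taken from 1 library, the log2 fold change of *Ldhb* was 0.60 without library 2 and 0.36 without library 1. Most of the astrocyte-like cells that the finer clustering placed elsewhere, largely in its neuron-like cluster, were *Crym*-. It left 504 *Crym*+ and 806 *Crym*- cells in library 1, and 435 and 546 in library 2. *Aldoc* was then 4610 and 4755 CPM in *Crym*+ and 3712 and 3833 CPM in *Crym*- cells. The part of the cells that left in the difference was not tested.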

How the data were processed

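The authors aligned and counted 10x reads with Cell Ranger on mm10. What was deposited, per the file headers, is a matrix of UMI counts for each cell, not normalized. The matrix header and the submitters' processing notes name Cell Ranger 4.0, and the paper names another version.

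Cells with at least 300 genes were kept, doublets marked by Scrublet (scanpy 1.11.5, expected rate 6%; 1.39% and 2.96% marked) were removed, and Seurat 5.3.0 in R 4.3.3 integrated the libraries by canonical correlation analysis on 1994 of 2000 variable genes, without the members and the pathway list, and clustered them on 30 components at resolution 0.08 (0.32 for the finer clustering). A class needed at least 3 markers raised at least 2-fold and 1 among its 50 leading genes. Counts summed per library and class were fitted in edgeR 4.0.16 (filterByExpr, TMM, library as a block, prior count 2), with Benjamini-Hochberg adjustment. DESeq2 1.42.0 was an alternative. Classes of 1 library were dissociated together, which is why the library number pairs them. The *Crym* groups were cut at a natural log value of 0.25 and tested over genes detected in at least 10% of either group. Levels and shares carry exact 95% intervals for counting error only. In the pathway list, the 2 genes of each role with the largest change and all steps with 1 main gene are given with values. The labels do not say whether the libraries came from separate animals. The paper profiled several mice in its single-cell work but does not match them to these libraries. The class tests shared 1 fit of 18 sums, with the library as a block. Their p-values measure the scatter left after class and library, pooled over the classes. They do not measure the spread between animals. The code was tested on simulated data. Members and lists were chosen with earlier results of these data known.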

Additional observations from a re-analysis of the deposited data

How the results depend on the processing

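Of 97 pairs of a gene and a class comparison that passed the test, 92 kept their direction in all 11 alternatives and 68 also passed in all of them. *Pkm* in neuron-like over astrocyte-like cells changed sign with DESeq2 (0.038) and without TMM (0.16), *Ldha* without TMM (0.076) and *Pgam1* without TMM (0.026). In neuron-like over microglia-like cells *Pkm* became 0.086 with DESeq2 and 0.33 without TMM, and *Ldha* 0.15 without TMM. In neuron-like over endothelial-like cells *Pkm* became 0.0068 with DESeq2 and 0.065 without TMM, and in astrocyte-like over microglia-like cells *Ldha* became 0.077 without TMM. *Aldoc* in neuron-like cells over cluster 3 changed from -1.94 to 0.58 at resolution 0.32, 0.85 with doublets kept and 0.77 with the members kept in the clustering, settings in which the clusters hold other cells. The cause was not tested.

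Of the counts, the 5 genes that differed between neuron-like and oligodendrocyte-like cells became 8 with DESeq2, at resolution 0.32, with doublets kept and with at least 500 genes, and 10 without TMM. Over all genes, 9308 of 15250 differed there, against 9000 of 15250, 9292 of 15178, 9253 of 15207, 9041 of 15205 and 9096 of 15250 in these settings in turn. The 8 of neuron-like over mural-like cells became 5 after thinning, where all genes went from 8577 of 15250 to 4156 of 11385. The 2 of the *Crym* comparison became 0 with DESeq2, 0 with no replicate block, 0 with the astrocyte-like cells of resolution 0.32, and 4 without the filter on low counts. By edgeR, 474 of all 5958 genes passed there, 4 with no replicate block, where 319 had an unadjusted p under 0.05, and 85 of 4918 by DESeq2. With the astrocyte-like cells of resolution 0.32 it was 193 of 6058, and without the filter 1221 of 19325. Without the replicate block, 5 of the 10 genes passed between neuron-like and astrocyte-like cells against 6, and 7010 of all 15250 genes against 7528.

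The share of *Aldoc* in neuron-like cells, 13.3%, became 24.1% at resolution 0.32, 25.9% with doublets kept, 24.1% with at least 500 genes, 21.6% after thinning and 24.1% with the members kept in the clustering. That of *Eno2* in astrocyte-like cells became 5.03% after thinning. That of *Ldhb* in neuron-like cells became 80.8%, 80.7%, 80.8%, 80.6%, 74.9% and 80.7% at resolution 0.32, with doublets kept, with at least 500 genes, under 20% mitochondrial UMIs, after thinning and with the members kept. Each library left out in turn gives a value with no test. *Aldoc* in neuron-like cells over cluster 3 was -2.63 without library 1 and -1.17 without library 2, and *Pfkp* over microglia-like cells 4.66 and 3.24. Without one library the *Aldoc* share in neuron-like cells ranged from 9.56% to 17.0%, that of *Eno2* from 53.6% to 65.0% and that of *Ldhb* from 80.1% to 80.2%. In astrocyte-like cells they ranged from 82.9% to 85.3%, 2.12% to 4.01% and 91.3% to 92.7%. The alternatives of the pathway list were added after the data were seen, and the depth of 364 neuron-like cells limits genes at a few CPM.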
